A study of Drosophila melanogaster with 84 samples.

Results

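Gene expression around lights-on was compared with gene expression around lights-off in the fat body of wild-type flies held at 18°C. The dawn window held the 6 libraries of ZT22, ZT24 and ZT2, and the dusk window the 6 libraries of ZT10, ZT12 and ZT14, where ZT is the time in hours after lights-on and each time point had 2 replicates. These 12 libraries are all those of the 6 time points among the 24 libraries of this condition, and the deposited table holds 84 libraries. Both windows came from mated w1118 females (Iso31) fed 15% SY, a sucrose and yeast food, about 3 days old when transferred to cycles of equal light and dark. By the study's methods all flies were raised at 25°C and entrained before a shift to 18°C, with controls left at 25°C, and day 5 is the day of sampling at the final temperature. By this schedule ZT22 and ZT14 fell in the dark, and ZT2 and ZT10 in the light. ZT24 and ZT12 fell at the changes of light and were counted here as dark and light. The methods give day 5 sampling from ZT2 to ZT24. By these labels the dawn window joins ZT2, the first time point, with ZT22 and ZT24, the last, and does not follow a single dawn. Each library held abdominal fat tissue pooled from 10 flies, dissected free of intestine, ovaries and Malpighian tubules but still attached to the epidermis. For comparison, 12 libraries of the same windows came from wild type on 15% SY at 25°C, 12 from wild type on 5% SY at 25°C, and 8 from *Clk-Jrk* mutants on 15% SY at 25°C, a line backcrossed to w1118 that carries a dominant-negative form of *Clk*. The mutant windows were ZT22 and ZT2 against ZT10 and ZT14.

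The fly clock is a feedback loop in which the transcription factors CLK and CYC activate *per* and *tim*, whose proteins then repress CLK and CYC. In a second loop, VRI represses and PDP1 activates *Clk*, while CWO represses targets of CLK and CYC, and CRY is the blue-light photoreceptor that resets the clock. Targets of CLK and CYC are known for high RNA around the first part of the night and low RNA around dawn, and *Clk* and *cry* for the opposite phase. The fat body, which serves as liver and adipose tissue of the fly, has such a clock of its own.

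Fat body markers were abundant in every library. All 10 had a median above 5 TPM (the length-corrected transcript share that the RSEM program estimates), and their summed level ran from 14560 to 97720 TPM at dawn and from 17050 to 94830 TPM at dusk, most of it from the yolk protein genes *Yp1*, *Yp2* and *Yp3*. The replicate series differed more than the windows did, as the sum was 14560 to 55820 TPM in the 6 libraries of replicate 1 and 59010 to 97720 TPM in the 6 of replicate 2. All 5 oenocyte markers were above 5 TPM, with sums of 30650 to 50330 TPM at dawn and 32360 to 58400 TPM at dusk. Muscle markers (15 of 17 above 5 TPM) summed to 3314 to 6271 TPM at dawn and 3358 to 7286 TPM at dusk. Hemocyte markers (8 of 9) summed to 279 to 362 TPM at dawn and 241 to 495 TPM at dusk, and Malpighian tubule markers (4 of 6) to 29.8 to 108 TPM at dawn and 21.4 to 62.1 TPM at dusk. Markers of ovary and eggs (7 of 14) spanned 55.5 to 4164 TPM at dawn and 43.1 to 5736 TPM at dusk, and were above 4000 TPM in 1 dawn library (ZT24 replicate 2) and 3 dusk libraries (both of ZT10 and ZT12 replicate 2). Gut markers (8 of 14) summed to 214 to 524 TPM at dawn and 235 to 6155 TPM at dusk, and the 4 dusk libraries of ZT10 and ZT12 exceeded every dawn library, with the highest value in ZT12 replicate 2. All 8 gut markers tested had lower values at dawn, with a median difference of -1.95 on the log2 scale, and so had all 5 ovary and egg markers tested (median -0.78, median sums 299 TPM at dawn and 2615 TPM at dusk). None of either list passed the limma test given with the counts of genes. None of the 8 markers of nervous tissue had a median above 5 TPM, and no marker of any list was at 0 in all 12 libraries. Fits that drop libraries by fat body or egg markers, or take the fat body sum as a term, are given with the gene counts. The part of the markers in the results was not otherwise tested. In pooled tissue fewer cells of a type and less RNA per cell cannot be told apart.

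**Figure D1:**
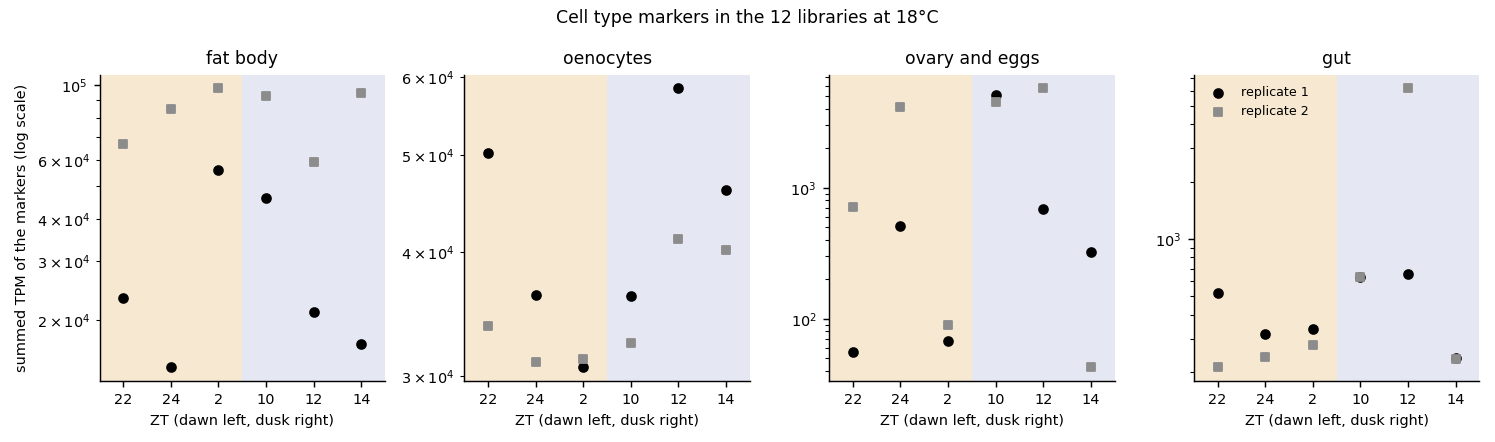
Summed TPM of the markers of 4 cell types (log scale) in each of the 12 libraries at 18°C, by time point, with dawn on orange and dusk on blue, replicate 1 as black circles and replicate 2 as grey squares. Fat body sums were 14560 to 55820 TPM in replicate 1 and 59010 to 97720 TPM in replicate 2, and the gut sum reached 6155 TPM in dusk ZT12 replicate 2.

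A total of 16 features differed between the windows at 18°C, of which 5 were higher at dawn and 11 were lower. They were 0.235% of the 6816 features tested, which had a median TPM above 5 at 18°C, and the threshold was an adjusted limma *p* of 0.05 on log2(TPM + 1) with the replicate as a block. In all 16 the 6 dawn libraries did not overlap the 6 dusk libraries. Such complete separation was seen in 18 features with dawn higher (0.264%) and 63 with dawn lower (0.924%). Without adjustment, *p* was below 0.05 for 232 features higher at dawn (3.4%) and 630 lower (9.24%), and the median difference of all features was -0.054. The libraries of a window came from 3 time points, so each SD given here holds differences between times as well as between replicates. The labels do not say whether replicates came from separate cohorts of flies, and the *p*-values measure the spread between these libraries only.

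The number of genes called depended on single libraries and on the settings. With array weights, estimated from the same 12 libraries (0.197 to 2.52), 462 genes passed, including all 16 (154 higher and 308 lower). With no filter on low values 3 passed, without replicate 1 it was 4, and without replicate 2 none, with 365 features below 0.05 unadjusted. Without dawn ZT22 replicate 1 or 2 it was 5 or 4, without dawn ZT24 replicate 1 or 2 it was 7 or 6, and without dawn ZT2 replicate 1 or 2 it was 10 or 7. Without dusk ZT10 replicate 1 or 2 it was 54 or 12, without dusk ZT12 replicate 1 or 2 it was 9 or 4, and without dusk ZT14 replicate 1 or 2 it was 8 or 6. *tim*, *vri*, *kdn* and *CG17560* passed in all 12 of these fits. With the 8 libraries left when ZT24 and ZT12, or ZT2 and ZT14, were taken out, no gene passed, while without ZT22 and ZT10 29 did. Without the replicate block 8 genes passed, all among the 16. Scaled by the median of ratios, 5 genes passed as higher and 4 as lower, all 9 among the 16. Without the 4 libraries with fat body marker sums below 25000 TPM, replicate 1 of dawn ZT22 and ZT24 and of dusk ZT12 and ZT14, 3 genes passed, among them *kdn* and *tim*, and with that sum as a term 24 passed, including all 16. Without the 4 libraries with egg marker sums above 4000 TPM, 2 genes passed, neither of them among the 16, and 815 features were below 0.05 unadjusted. This left no dusk library of ZT10 and only replicate 1 of ZT12. Egg markers and time points thus changed together, and their parts cannot be told apart. In that fit the differences were -2.28 for *tim* (adjusted *p* = 0.0947), -1.48 for *vri* (0.0947) and 0.84 for *kdn* (0.136), close to those from all 12 libraries.

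The clock repressor genes *tim*, *vri* and *per* fell at dawn, while *cwo* did not pass. *tim* (FBgn0014396, 2L:3493986-3508119) had 39.9 and 21.3 TPM at ZT22, 18.9 and 11.9 TPM at ZT24 and 13.6 and 12.2 TPM at ZT2 in replicates 1 and 2. In the dusk libraries *tim* had 83.6 and 81.7 TPM at ZT10, 98.2 and 127 TPM at ZT12 and 95.9 and 103 TPM at ZT14. Every dawn library lay below every dusk library, and the highest dawn value of each replicate was at ZT22. The log2 difference of *tim* was -2.38 ± 0.25 (SE), a 5.20-fold difference on the log2(TPM + 1) scale, with an adjusted *p* of 0.00372. It was -2.03 in replicate 1 and -2.73 in replicate 2. Over the 12 time points, mean *tim* RNA was highest at ZT12 with 112 TPM and lowest at ZT2 with 12.9 TPM.

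The transcription factor gene *vri* (FBgn0016076, 2L:5288944-5311223), whose product represses *Clk*, averaged 13.4 ± 3.29 TPM at dawn and 44.6 ± 12.7 TPM at dusk (SD, n = 6 each). Its dawn libraries ran from 9.60 to 18.2 TPM with a median of 13.7 TPM, against 33.7 to 68.1 TPM with a median of 39.6 TPM at dusk. The windows were well apart, with a log2 difference of -1.65 ± 0.20 (SE) and an adjusted *p* of 0.00436. *per* (FBgn0003068, X:2685580-2692780), the partner of *tim* in repression, was much less abundant. It had 3.08 to 5.25 TPM at dawn with a median of 4.21 TPM, and 5.72 to 14.04 TPM at dusk with a median of 9.12 TPM. The difference was -1.004 ± 0.16 (adjusted *p* = 0.0281), nearly the same in replicate 1 (-1.02) and replicate 2 (-0.99), although the windows of *per* were separated by less than 1 TPM. Its call held in 4 of the 12 fits with a library left out, with adjusted *p* up to 0.0974. *per* shares exon bases with *dyw* and *tim* with lncRNA:CR46495 and snoRNA:Or-CD16, and reads were counted without regard to strand.

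*Clk* was the only core clock gene under the filter, with a median of 3.65 TPM over the 24 libraries at 18°C. Its dawn libraries had 6.34 and 5.47 TPM at ZT22, 6.69 and 5.22 TPM at ZT24 and 4.38 and 4.73 TPM at ZT2, against 3.36 and 1.94 TPM at ZT10, 2.82 and 1.51 TPM at ZT12 and 2.10 and 1.47 TPM at ZT14. All dawn values lay above all dusk values, opposite to *tim*, *vri* and *per*. With the filter at 1 TPM in place of 5, *Clk* was higher at dawn by 1.04 ± 0.15 (adjusted *p* = 0.0205), and with no filter its adjusted *p* was 0.0789. *cyc*, the gene of the partner of CLK, had 22.5 to 29.5 TPM at dawn and 29.6 to 36.6 TPM at dusk. These values met without overlapping (29.53 TPM at dawn ZT24 replicate 2 and 29.55 TPM at dusk ZT12 replicate 2), and the difference of -0.34 ± 0.10 had an adjusted *p* of 0.202.

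The other clock genes overlapped between windows and did not pass. *Pdp1*, which codes for the activator of *Clk*, averaged 27.1 ± 9.18 TPM at dawn and 48.2 ± 18.5 TPM at dusk (difference -0.78 ± 0.22, adjusted *p* = 0.185). For *cwo* the means were 20.7 ± 3.12 TPM at dawn and 32.5 ± 10.3 TPM at dusk (-0.58 ± 0.18, adjusted *p* = 0.209). The photoreceptor gene *cry* averaged 113 ± 25.4 TPM at dawn and 81.8 ± 20.1 TPM at dusk (0.46 ± 0.14, adjusted *p* = 0.209). Its extremes lay outside the windows, with a mean of 141.5 TPM at ZT4 and 59.97 TPM at ZT16. Replicate 2 was above replicate 1 for *cry* in all 6 time points of the windows, and the difference within each series was 0.46. *cry* shares exon bases with *vib* and lncRNA:CR46393. Of the 7 core clock genes tested, 3 passed, all lower at dawn, where 0.235% of all features passed in either direction. The median difference of the 7 was -0.78, against -0.054 for all features. None of 17 kinases, phosphatases and degradation factors of the clock passed. Without adjustment 2 of the 17 had a limma *p* below 0.05, both lower at dawn, near the share over all features (9.24% lower). The one with the smallest *p* was *sgg*, whose kinase phosphorylates TIM, with 25.8 ± 2.51 TPM at dawn and 35.1 ± 7.34 TPM at dusk (adjusted *p* = 0.232).

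**Figure D2:**
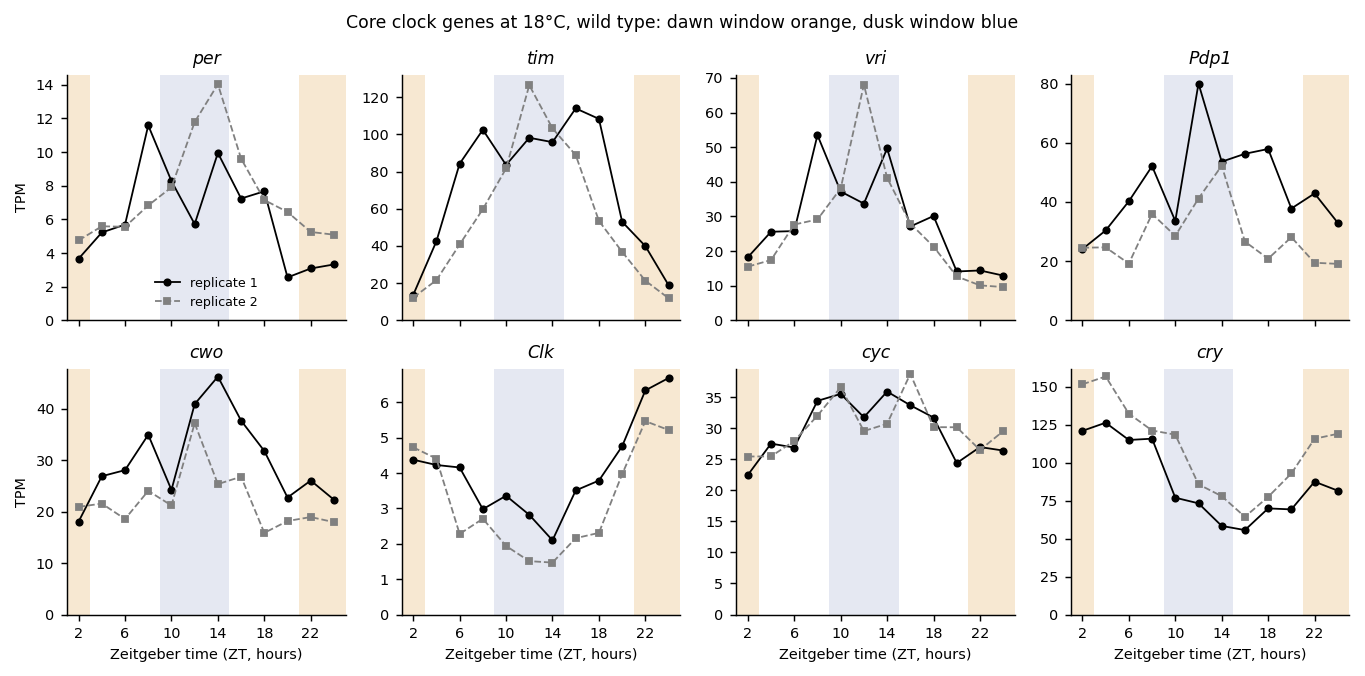
TPM of the 8 core clock genes over the day at 18°C in replicate 1 (black circles) and replicate 2 (grey squares), with the dawn window in orange and the dusk window in blue. *tim* stood at 11.9 to 39.9 TPM in the dawn libraries and 81.7 to 127 TPM in the dusk libraries, and *Clk* ran the other way with 4.38 to 6.69 TPM at dawn and 1.47 to 3.36 TPM at dusk.

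Of the 5 genes higher at dawn, *kdn*, *CG17560* and *bgm* code for enzymes or members of enzyme families. In the lists of lipid and sugar genes no member passed as higher. *kdn* (FBgn0261955, X:6350629-6361323) codes for citrate synthase, which brings acetyl-CoA into the citric acid cycle. It had 300.2 and 291 TPM at ZT22, 267 and 308 TPM at ZT24 and 312 and 312 TPM at ZT2, against 189.85 and 143 TPM at ZT10, 193 and 168 TPM at ZT12 and 149 and 158 TPM at ZT14. The libraries of each window lay close together and the windows were far apart, with a log2 difference of 0.85 ± 0.10 (SE, adjusted *p* = 0.00436). The most abundant of the 16 genes was *CG17560* (FBgn0038450, 3R:16617950-16619878), a member of the fatty acyl-CoA reductase family. It had 1482, 1199, 1666, 1685, 1843 and 2031 TPM at ZT22, ZT24 and ZT2, replicate 1 before replicate 2 at each time. At ZT10, ZT12 and ZT14 it had 756, 904, 723, 591, 456 and 620.1 TPM in the same order of replicates. The difference was 1.302 ± 0.17 (adjusted *p* = 0.0110), but its extremes lay outside the windows, with a mean of 2053 TPM at ZT4 and 510.2 TPM at ZT16. *CG17560* shares exon bases on its own strand with *mir-2494*, a feature listed at 80.5 TPM at dawn and 24.7 TPM at dusk on average, and reads of the pair cannot be told apart.

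*bgm* (FBgn0027348, 2L:14013004-14019328), the gene of a long-chain acyl-CoA synthetase, had 265 to 476 TPM at dawn with a median of 353 TPM, and 62.65 to 175 TPM at dusk with a median of 149 TPM. It was higher at dawn by 1.42 ± 0.23 (adjusted *p* = 0.0281) and highest of all time points at ZT22, with a mean of 422 TPM. *CG34180* (FBgn0085209, 2L:6060510-6060938) had the largest positive difference, 1.57 ± 0.22 (adjusted *p* = 0.0131). Its values were 11.6 to 27.3 TPM at dawn and 3.89 to 10.1 TPM at dusk, so the lowest dawn and highest dusk libraries lay near each other. It lies on exon bases of *ND-51*, on the other strand, which was far more abundant and alike in both windows (198 TPM at dawn and 199 TPM at dusk). *CG14400* (FBgn0032896, 2L:20856987-20857891) had 88.5 to 124 TPM at dawn and 60.4 to 80.5 TPM at dusk, a difference of 0.59 ± 0.10 (adjusted *p* = 0.0418). Among the fits with a library left out, *kdn* and *CG17560* passed in 12 of 12, *CG34180* in 9, *bgm* in 4 and *CG14400* in 2.

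Among the genes that fell at dawn outside the clock, *mib1* (FBgn0263601, 3L:16006552-16011812) had the largest difference. It codes for a ubiquitin ligase known for the endocytosis of Notch ligands. In the dawn libraries it had 14.5 and 10.6 TPM at ZT22, 14.8 and 10.9 TPM at ZT24 and 10.3 and 9.74 TPM at ZT2. In the dusk libraries it had 27.3 and 34.3 TPM at ZT10, 39.2 and 61.3 TPM at ZT12 and 101 and 72.3 TPM at ZT14. The dawn values were flat, while within the dusk window each later time point was above the one before it in both replicates. The difference was -2.03 ± 0.28 (SE, adjusted *p* = 0.0131), and it held in 10 of the 12 fits with a library left out. *mRpS31* overlaps *mib1* on the other strand and averaged 25.4 TPM at dawn and 26.9 TPM at dusk.

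*Fatp3* (FBgn0034999, 2R:24294097-24298111), of the fatty acid transport protein family, had 9.88 to 14.1 TPM at dawn and 15.97 to 25.8 TPM at dusk, a difference of -0.72 ± 0.12 (adjusted *p* = 0.0307). *CG6126* (FBgn0038407, 3R:16198000-16203083), of the SLC22 family of organic ion transporters, had 52.4 to 73.7 TPM at dawn and 91.4 to 157.5 TPM at dusk (-0.80 ± 0.14, adjusted *p* = 0.0366). The puromycin-sensitive aminopeptidase gene *Psa* (FBgn0261243, 3L:1502843-1523380) had 46.4 to 64.7 TPM at dawn and 81.8 to 107.3 TPM at dusk (-0.72 ± 0.12, adjusted *p* = 0.0281). In all 3 genes the gap between the windows was wider than 1 TPM, and the lowest dusk library was at ZT14 for *Fatp3* and at ZT10 for *CG6126* and *Psa*. *drongo* (FBgn0020304, 2L:833584-851071), which codes for a protein with an ArfGAP domain, had 27.2 to 39.7 TPM at dawn and 45.4 to 65.2 TPM at dusk (-0.68 ± 0.12, adjusted *p* = 0.0472), the weakest call of the 16.

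The remaining 3 genes have no role given here. *CG32512* (FBgn0052512, X:21062277-21067540) had 19.01 to 36.5 TPM at dawn and 37.6 to 82.6 TPM at dusk (-0.93 ± 0.15, adjusted *p* = 0.0281). *CG12795* (FBgn0031535, 2L:3452466-3453755), named after its values were seen, had 25.1 to 32.5 TPM at dawn and 36.8 to 51.5 TPM at dusk (-0.57 ± 0.10, adjusted *p* = 0.0418). *CG15547* (FBgn0039809, 3R:30881792-30883503) was low, with at least 3.65 and at most 6 TPM at dawn and 6.41 to 13.5 TPM at dusk (-0.95 ± 0.16, adjusted *p* = 0.0418). Its value is uncertain, as it shares exon bases on the same strand with *Sap-r*, which averaged 634 TPM at dawn and 689.6 TPM at dusk. *CG12795* overlaps *Cog3* and *CG32512* a transposon annotation. Leaving out 1 library at a time, these 3 genes and *Fatp3*, *CG6126*, *Psa* and *drongo* passed in 1 (*CG6126*) to 3 (*CG32512* and *CG12795*) of 12 fits, with adjusted *p* up to 0.165.

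**Figure D3:**
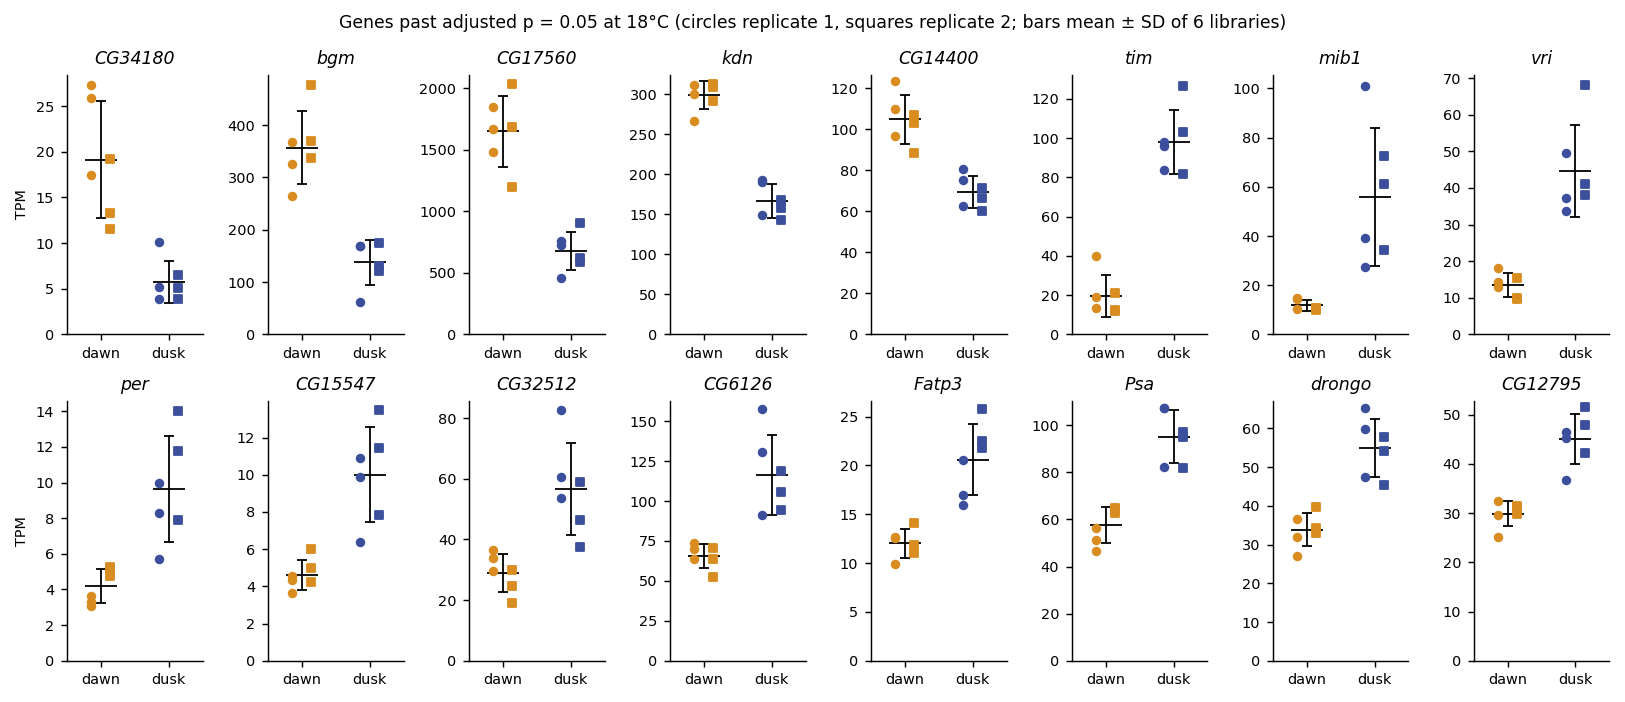
TPM of the 16 genes past an adjusted *p* of 0.05 in each library at 18°C, with dawn in orange left of dusk in blue, circles for replicate 1 and squares for replicate 2, and bars for the mean ± SD of 6 libraries. No dawn library of any of the 16 overlapped a dusk library, and in *per* the windows lay close, with a highest dawn value of 5.25 TPM and a lowest dusk value of 5.72 TPM.

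In the lists of metabolic genes, *Fatp3* was the only gene that passed. Members named from lists where none passed were chosen after their values were seen. Over all features, 9.24% were below 0.05 without adjustment as lower and 3.4% as higher, and counts of list members without adjustment stand against these shares. Of 13 genes of triglyceride synthesis, 1 passed as lower, where 0.235% of all features passed in either direction. Without adjustment 5 of the 13 were below 0.05 as lower and 1 as higher (medians: list -0.27, all features -0.054). *Agpat2*, an acyltransferase of this pathway, averaged 32.9 ± 11.4 TPM at dawn and 86.8 ± 41.2 TPM at dusk (adjusted *p* = 0.158). None of 15 genes of fatty acid synthesis and desaturation passed, and 6 were below 0.05 without adjustment, all lower (median -0.26). *FASN1*, the fatty acid synthase gene, averaged 668 ± 87.1 TPM at dawn and 1003 ± 249.5 TPM at dusk (adjusted *p* = 0.130), with windows that met at 815 TPM for dawn and 808 TPM for dusk. None of 11 genes of lipolysis and lipid droplets passed (1 lower without adjustment, median -0.24). *bmm*, the fly triglyceride lipase, averaged 70.6 ± 13.7 TPM at dawn and 99.6 ± 33.8 TPM at dusk (adjusted *p* = 0.416). None of 17 genes of fatty acid oxidation passed (1 lower without adjustment), and their median was 0.045.

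For sugar metabolism, none of 16 genes of glycolysis and gluconeogenesis, 7 of the pentose phosphate pathway or 11 of glycogen and trehalose passed. Without adjustment these lists had 1, 0 and 1 genes below 0.05 as higher and 1 each as lower. *UGP*, whose product makes UDP-glucose for glycogen, had 1193 to 1708 TPM at dawn and 596 to 1189.9 TPM at dusk, which did not overlap (0.56 ± 0.15, adjusted *p* = 0.173). Of 5 sugar sensing genes none passed and 2 were lower without adjustment. *sug*, a transcription factor gene induced by dietary sugar, averaged 92.3 ± 28.1 TPM at dawn and 163 ± 51.9 TPM at dusk (adjusted *p* = 0.190). None of 20 genes of insulin, FOXO and TOR signalling passed, with 6 lower and 0 higher without adjustment (9.24% and 3.4% over all features, median -0.23), and of 22 autophagy genes none passed and 2 were lower (median -0.05). *rictor*, which codes for a subunit of TOR complex 2, averaged 8.05 ± 0.65 TPM at dawn and 10.9 ± 1.64 TPM at dusk (adjusted *p* = 0.209).

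Lists of defence and stress genes had no gene past the threshold either. Of 22 genes of Toll and Imd signalling, 7 were lower without adjustment and 0 higher (9.24% and 3.4% over all features, median -0.17), among them *Rel*, the NF-kappaB factor of the Imd pathway, with 69.4 ± 11.3 TPM at dawn and 121 ± 41.9 TPM at dusk (adjusted *p* = 0.190). The 7 antimicrobial peptide genes tested had a median of 0.37 with 0 below 0.05 in either direction. Their spread was wide, and *Dro* ran from 2.05 to 3038 TPM at dawn and from 1.22 to 267 TPM at dusk. Of 17 antioxidant genes 3 were lower without adjustment. *GstD1*, a glutathione S-transferase gene induced by oxidants, had 204 to 267 TPM at dawn and 308 to 415 TPM at dusk, which did not overlap, and came nearest to the threshold (-0.53 ± 0.10, adjusted *p* = 0.0794). Heat shock genes had 2 of 13 lower without adjustment (median -0.33), and genes of the endoplasmic reticulum 1 of 20 (median 0.09). Iron genes had 1 lower of 9, and the methionine cycle 1 lower of 9.

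No gene of the detoxification lists passed. Of 53 cytochrome P450 genes, 2 were higher and 4 lower without adjustment, near the shares over all features (3.4% and 9.24%). The smallest *p* values were those of *Cyp6a21* at 16.5 ± 4.71 TPM at dawn and 8.61 ± 1.84 TPM at dusk (adjusted *p* = 0.121) and *Cyp12d1-p* at 12.2 ± 2.61 TPM at dawn and 25.1 ± 9.03 TPM at dusk (adjusted *p* = 0.105). Of 23 glutathione S-transferase genes 1 was higher and 4 lower, and of 12 UDP-glycosyltransferase genes 4 were higher and 0 lower. Nuclear hormone receptors had 5 of 8 lower and 0 higher without adjustment (9.24% and 3.4% over all features, median -0.29), and *ERR* had 47.8 to 61.8 TPM at dawn and 62.6 to 87.8 TPM at dusk without overlap (adjusted *p* = 0.177). No nuclear receptor gene passed.

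Among the housekeeping complexes, the vacuolar ATPase had the list median furthest from 0. The medians were -0.09 for 86 cytosolic and 0.06 for 75 mitochondrial ribosomal protein genes, -0.01 for 64 subunits of oxidative phosphorylation, -0.07 for 32 proteasome subunits, -0.19 for 18 vacuolar ATPase subunits and 0.08 for 18 aminoacyl-tRNA synthetases. Members with a difference above 0 numbered 11, 56, 26, 2, 2 and 15 in the same order. None of their members passed. Without adjustment the counts below 0.05 were 1, 1, 0, 0, 0 and 0 as higher and 0, 0, 0, 0, 2 and 0 as lower. Over all features the shares were 3.4% higher and 9.24% lower. The 4 yolk and storage protein genes tested had a median of 0.15 and none below 0.05, while *Yp1* spanned 4792 to 34726 TPM at dawn and 4418 to 33278 TPM at dusk.

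**Figure D4:**
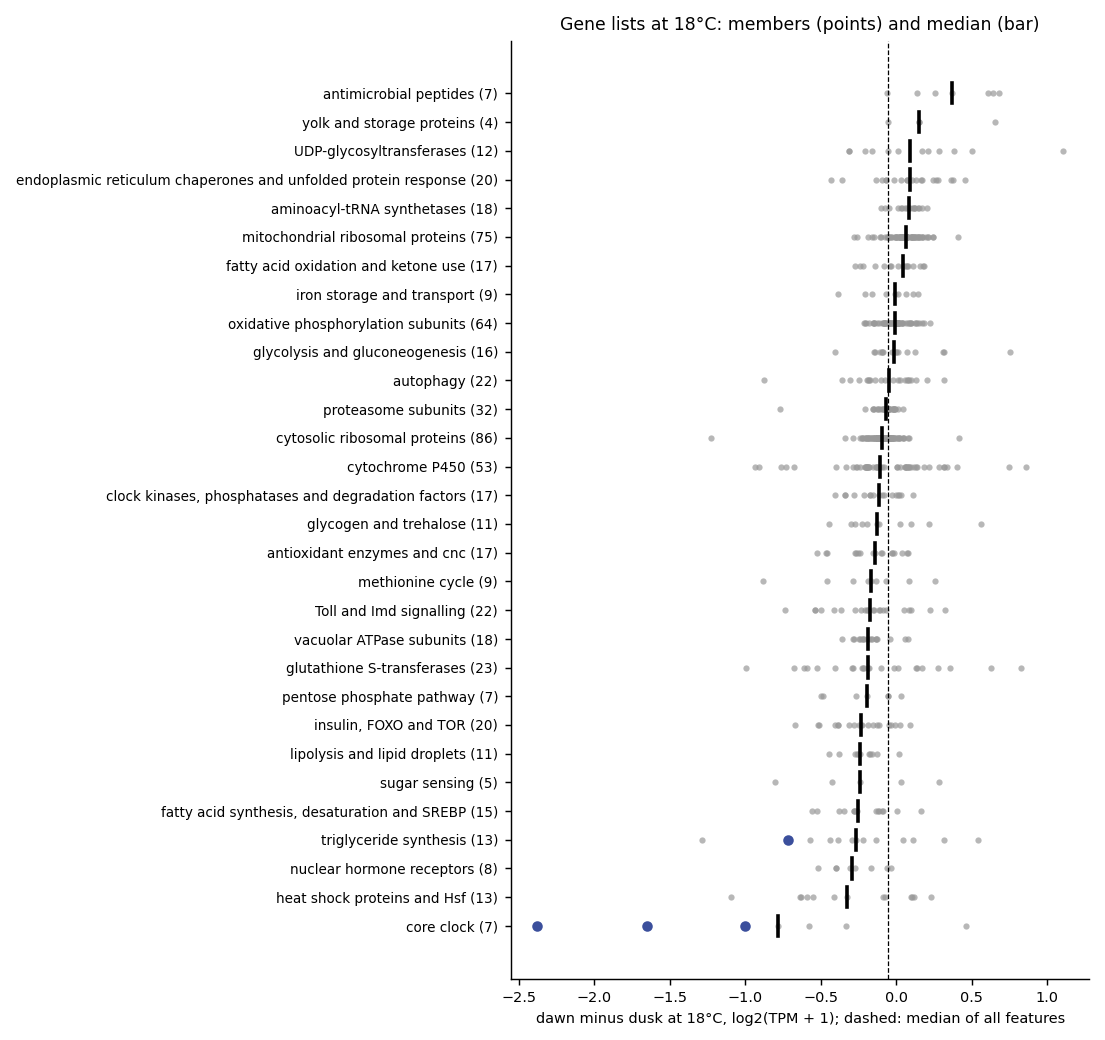
Dawn minus dusk in log2(TPM + 1) at 18°C for the tested members of each gene list (points, their number in parentheses) with the list median (black bar) and the median of all features (-0.054, dashed line). Members past the threshold are large blue points, which are *tim*, *vri* and *per* among the core clock genes and *Fatp3* in triglyceride synthesis.

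The same windows at 25°C gave 6 genes past the threshold (0.088% of 6816), 4 higher and 2 lower at dawn. None of them was among the 16 at 18°C, but all 6 had the same sign there (adjusted *p* 0.121 to 0.681). The log2 differences at 18°C and 25°C were 1.93 and 2.07 for *mir-2494*, which shares exon bases with *CG17560*, 1.32 and 1.57 for *CG10096*, 1.19 and 1.70 for *geko* and 0.82 and 1.22 for *GstZ2*. They were -0.45 and -0.92 for *CG10345* and -0.40 and -1.22 for *CG42662*. These 6 were named after their values were seen. The median difference of all features was 0.122 at 25°C, against -0.054 at 18°C. Whether the difference between windows differed with temperature was tested as an interaction in 7157 features, and no gene passed (0%), with a smallest adjusted *p* of 0.181. Without adjustment 588 (8.22%) were below 0.05, and with array weights 66 passed. The median of the interaction was -0.161, or 0.01 after scaling by the median of ratios. The 18°C libraries enter both this test and the one that chose the 16 genes, so their interaction values are a description. *mib1* had a log2 difference of -2.03 at 18°C and -0.36 at 25°C (interaction -1.66 ± 0.36, adjusted *p* = 0.215). For *kdn* it was 0.85 at 18°C and 0.26 at 25°C (interaction 0.59 ± 0.13, adjusted *p* = 0.217). For *tim* it was -2.38 at 18°C and -0.52 at 25°C (interaction -1.86 ± 0.48, adjusted *p* = 0.343), and *tim* had 52.5 ± 29.0 TPM at dawn and 66.2 ± 16.6 TPM at dusk at 25°C. *vri* had -1.65 at 18°C and -1.29 at 25°C. The 95% interval of its interaction, -1.03 to 0.31, held 0, as did those of *CG34180* (-0.09 to 1.72) and *CG17560* (-0.08 to 1.25). None of the 16 passed in the interaction, with adjusted *p* from 0.215 to 0.678. Within the dawn window at 25°C, *tim* ran from 16.3 to 92.8 TPM. In windows fixed in ZT, a shift in phase and a change in the size of a rhythm cannot be told apart, and neither was tested.

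The other 4 of the 5 genes with the smallest interaction *p* differed in sign between the temperatures, and none passed at either one. *CG10469* (FBgn0035678) averaged 12.1 ± 5.93 TPM at dawn and 29.0 ± 22.9 TPM at dusk at 18°C, and 28.0 ± 13.1 TPM at dawn and 13.5 ± 10.2 TPM at dusk at 25°C (interaction -2.01 ± 0.37, adjusted *p* = 0.181). In all 6 time points at 18°C replicate 1 was the higher, and *CG10469* shares exon bases with *CG10467* on its strand. *CG8665* (FBgn0032945), which codes for a 10-formyltetrahydrofolate dehydrogenase, averaged 53.1 ± 8.75 TPM at dawn and 34.5 ± 8.27 TPM at dusk at 18°C, and 20.6 ± 3.53 TPM at dawn and 26.6 ± 3.16 TPM at dusk at 25°C (0.99 ± 0.20, adjusted *p* = 0.215). *Sply* (FBgn0010591), the sphingosine-1-phosphate lyase gene, averaged 118 ± 10.8 TPM at dawn and 98.7 ± 15.9 TPM at dusk at 18°C, and 85.9 ± 8.63 TPM at dawn and 109 ± 7.27 TPM at dusk at 25°C (0.61 ± 0.13, adjusted *p* = 0.215). For *CG15771* (FBgn0029801) the means were 50.9 ± 5.39 TPM at dawn and 72.0 ± 10.5 TPM at dusk at 18°C, and 55.3 ± 7.88 TPM at dawn and 47.0 ± 4.44 TPM at dusk at 25°C (-0.71 ± 0.16, adjusted *p* = 0.215).

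On the 5% SY diet at 25°C 12 features passed (0.176% of 6816). Among them *vri* was lower at dawn by 1.50 ± 0.24 (adjusted *p* = 0.0204) and *CG34180* was higher by 1.25 ± 0.23 (adjusted *p* = 0.0471), with 21.9 ± 7.84 TPM at dawn and 8.39 ± 2.40 TPM at dusk. The other 14 of the 16 genes did not pass there. Without adjustment, 6 of the 16 had a limma *p* below 0.05 on this diet, against 514 of the 6816 features. In *Clk-Jrk* mutants no feature passed (0%), and 335 of 6816 (4.91%) were below 0.05 without adjustment, from 4 libraries at each window. *tim* had 3.81 ± 1.33 TPM at dawn and 3.59 ± 1.63 TPM at dusk in the mutant, and *vri* 2.92 ± 1.04 TPM at dawn and 3.91 ± 1.37 TPM at dusk, and every mutant library of both genes was below every wild-type library of both windows at 18°C. *CG17560* had 2057 ± 385 TPM at dawn and 1996 ± 147 TPM at dusk in the mutant (0.03 ± 0.16), and *mib1* 23.1 ± 3.40 TPM at dawn and 23.9 ± 8.45 TPM at dusk (-0.00 ± 0.25). Diet, genotype and temperature differ between these flies and those at 18°C, and the difference from 18°C was not tested.

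**Figure D5:**
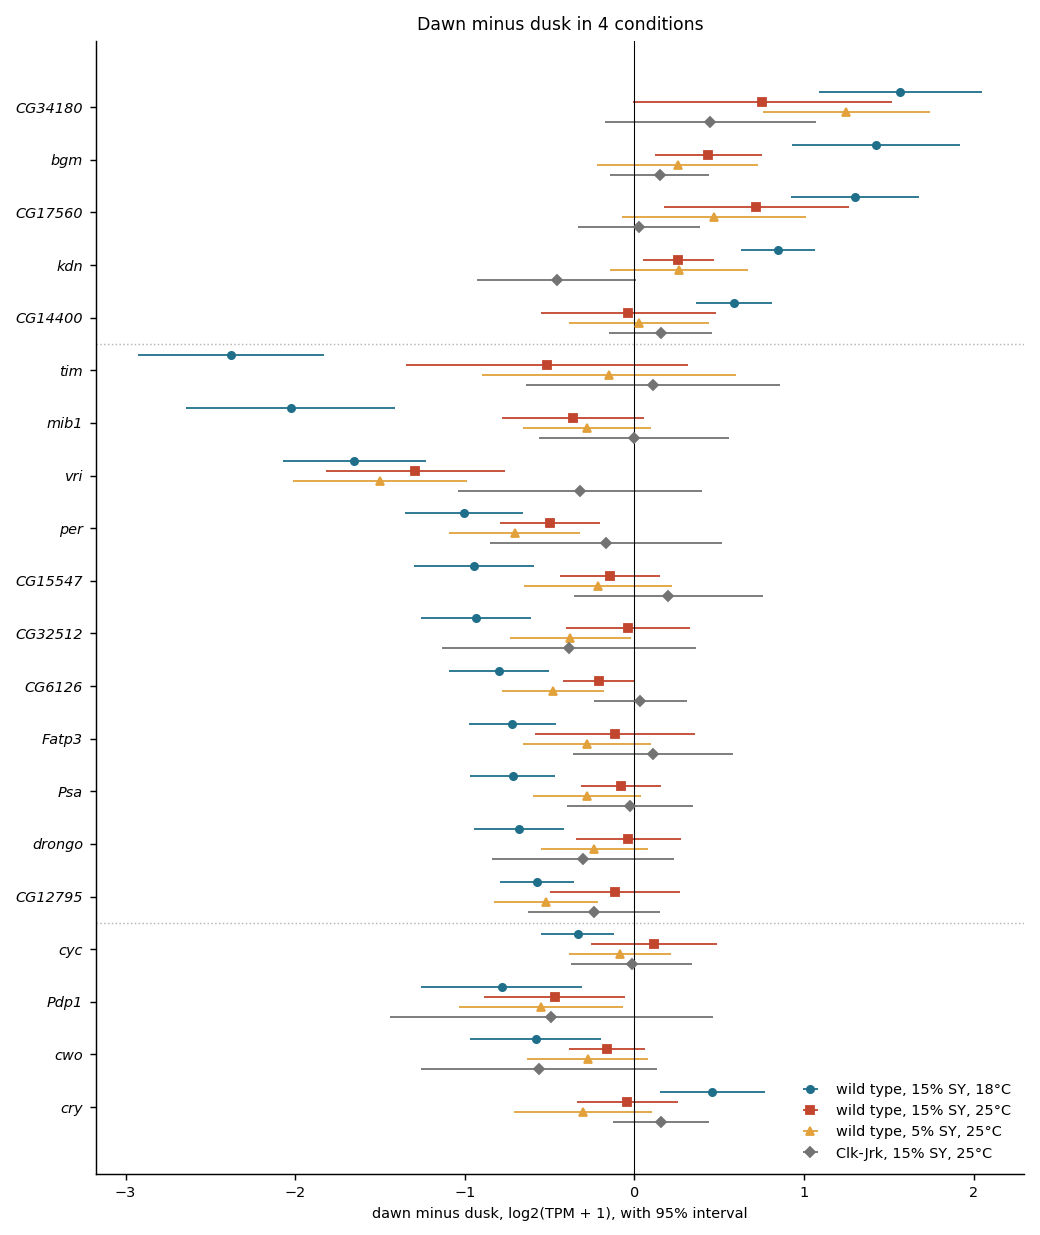
Dawn minus dusk in log2(TPM + 1), with 95% intervals, for the 16 genes called at 18°C and 4 other core clock genes in wild type at 18°C, wild type at 25°C, wild type on 5% SY at 25°C and *Clk-Jrk* at 25°C. The 16 genes were chosen on the 18°C values, where *tim* was at -2.38 and *kdn* at 0.85, against -0.52 and 0.26 in wild type on 15% SY at 25°C.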

How the data were processed

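The values were TPM per gene in the table the authors deposited for day 5. From the methods and the submitters' processing notes, the authors trimmed single-end poly(A) reads with Atropos, aligned them with STAR (2.7.10a) and estimated TPM with RSEM (1.3.1) on Ensembl BDGP6, without strand. TPM keeps no read depth, so read depth was not known and no counting interval is given. Libraries listed 11497 to 14702 features above 0, and the 20 most abundant took 24.7% to 35.6% of TPM. All 84 columns matched a label, and 0 were left unmapped. Most rows were FlyBase genes (17869 of 23932), of which 17790 matched the annotation used here for positions and exon overlaps, a later release on the same assembly.

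From these values log2(TPM + 1) was fitted with limma (3.58.1, R 4.3.3; moderated variances with a trend, two-sided, Benjamini-Hochberg adjustment over all features tested) as dawn minus dusk with the replicate number as a block. Fold changes on this scale understate those of low genes. Tested were features whose median over the 24 libraries at 18°C exceeded 5 TPM, or for the interaction with temperature the median at either temperature. Labels number the replicates, and the difference between replicates 1 and 2 across genes correlated between the windows with 0.276, 0.468 and 0.369 for the 3 pairs of time points. The replicate number was fixed as a block by the rule of the comparison and was not chosen from these correlations. The time points were not fitted as pairs. Within a number, the 2 incubators of opposite light schedule could not be assigned.

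Named were the core clock genes, the genes past an adjusted *p* of 0.05 without overlap (up to 10 in each direction), up to 2 that passed per gene list, and the 5 with the smallest interaction *p*. These members and lists were chosen with earlier results of these data known. Alternatives were no block, another pseudocount (0.1), filters at 1 and 10 TPM or none, median-of-ratios scaling, array weights, no trend, a term for light, and leaving out libraries, replicates and time points. Alternatives that use marker sums were chosen after seeing the data. The fit was run on simulated data with known changes and independent noise in each library. Those data held no shift shared by the libraries of a replicate, so they cannot show how the fit does with such shifts. Protocol texts number the times from ZT0 to ZT22 and sample titles from ZT2 to ZT24, and titles were used.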

Additional observations from a re-analysis of the deposited data

Results flagged for a closer look

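Single libraries stood apart from the other 5 of their window in 4 of 66 groups of 6 libraries examined by Dixon's test (critical value 0.625), where chance gives about 1 in 20, or 3.3. *bgm* had 62.65 TPM in dusk ZT14 replicate 1, against 122 to 175 TPM in the other dusk libraries. *CG12795* had 25.1 TPM in dawn ZT24 replicate 1, against 29.5 to 32.5 TPM in the other dawn libraries. The oenocyte marker sum was 50330 TPM in dawn ZT22 replicate 1 and 30650 to 36160 TPM in the others. The gut marker sum was 6155 TPM in dusk ZT12 replicate 2 and 235 to 654 TPM in the other dusk libraries.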

How the results depend on the processing

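The number of genes called between the windows at 18°C (16) was 8 with no replicate block, 3 with no filter, 9 with median-of-ratios scaling, 462 with array weights (weights from 0.197 to 2.52, all 16 genes included), 0 without ZT24 and ZT12, 29 without ZT22 and ZT10, and 0 without ZT2 and ZT14. With 0 called, 657 and 448 features had an unadjusted *p* below 0.05. Added after seeing the data, fits without the libraries with low fat body or high egg marker sums called 3 and 2. Leaving out 1 library or 1 replicate number gave 0 to 54 genes, with 4 without replicate 1 (*kdn* and *tim* among them) and 0 without replicate 2 (365 features below 0.05 unadjusted). The count stayed between 13 and 19 with a pseudocount of 0.1, filters at 1 or 10 TPM or over the fitted libraries, no trend, or a term for light. At 25°C (6 genes) it was 3 with no filter, 19 with array weights, 0 without ZT24 and ZT12, 2 without ZT22 and ZT10, 0 without ZT2 and ZT14 and 0 without either replicate number. The interaction with temperature (0 genes) gave 1 with a filter at 1 TPM, 1 with no filter, 66 with array weights and 0 in the other fits. In the fits of the windows at 18°C no named gene changed direction. Of 719 gene values under an alternative there, 476 kept their side of the threshold, 238 lost and 5 gained the call. The causes were not tested. The depth of the libraries is unknown, so it cannot be said which low genes, such as *Clk* and *per*, were limited by it.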
